A study of Mus musculus with 4 samples.

Results

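Cux2-positive Rorb-low upper-layer neurons were defined here by transcript counts alone and numbered 32964 of the 794833 cells kept, out of 863580 segmented cells in all. A cell was kept if it held at least 20 counts of the 140 panel genes. A kept cell entered the population if it held at least 4 counts of Cux2, at most 1 of Rorb, at most 2 of Gad1 and Gad2 together, fewer than 5 of Bcl11b and at most 2 of Slc1a3. The mice were 5 days old (postnatal day 5) and had lost the right-sided whiskers to a lesion 24 h before, at postnatal day 4. MERFISH, which identifies single RNA molecules in tissue through barcodes imaged over successive hybridizations, was run on 10 µm coronal sections that included barrel cortex. A coverslip held a wild-type and a Cx3cl1(-/-) section side by side. There were 4 coverslips, of which 1 and 2 came from males and 3 and 4 from females. All mice had received the lesion, so no unlesioned mouse entered any comparison. Neither the genotype of a section nor the hemisphere of a cell was assigned, because the labels do not tie them to cells. The 8 sections, told apart by position, were used where a value per section is given.

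Neurons of the upper cortical layers connect cortical areas and hemispheres, and in sensory cortex they receive input from the layer 4 neurons beneath them, which are in turn targets of thalamic axons. Cux2 encodes a homeodomain transcription factor of layers 2 to 4, Rorb a nuclear receptor typical of layer 4, and Bcl11b a zinc-finger factor high in subcerebral projection neurons of deep layers. Gad1 and Gad2 make the transmitter of inhibitory neurons, and Slc1a3 encodes a glutamate transporter of astrocytes. Much of the panel covers Wnt signalling, in which secreted ligands bind Frizzled and Lrp receptors, secreted antagonists capture ligand, and heparan sulfate proteoglycans (glypicans, which are anchored by lipid, and syndecans, which span the membrane) hold ligands at the cell surface.

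The population took 3.46% and 5.01% of kept cells on the male coverslips and 3.60% and 4.39% on the female coverslips, a mean of 4.11% ± 0.726 (SD, n = 4). Coverslip 2 had the highest share and coverslip 1 the lowest, so that the male pair spanned the female pair. The median cell held 208, 198, 223 and 302 gene counts on coverslips 1 to 4. Coverslip 4 was the deepest, and its members were deepest as well. The 40 blank barcodes, which match no probe, made up 1.15% to 1.55% of the members' counts, and the most frequent blank reached 0.194 to 0.404 counts per cell. A gene was treated as measured above false decoding only where it exceeded all 40 blanks on every coverslip.

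The label was checked against its 3 markers. Cux2, which the rule used, averaged 8.84, 9.57, 9.21 and 11.4 counts per cell on coverslips 1 to 4. The members held 377 ± 39.5 Cux2 counts per 10000 gene counts, against 84.0 ± 15.5 over all kept cells. Gpc5, a glypican, was 2.30 times as high in the members as over all kept cells, and Frzb, a secreted Wnt antagonist, 1.96 times as high. Frzb exceeded every blank on only 3 of the 4 coverslips. Neither marker set the members apart from layer 4 neurons, which are defined below. Gpc5 was 161 ± 35.1 per 10000 in the members against 185 ± 40.5 in layer 4 neurons. Frzb was 19.6 ± 6.06 against 16.1 ± 2.66, and the coverslip ranges of both genes overlapped. None of the 5 microglial, 2 border macrophage, 3 inhibitory or 3 vessel markers exceeded every blank on all 4 coverslips. Of the 4 astrocyte markers other than the gate gene, 3 did, with a summed level of 105 to 169 counts per 10000 against 506 to 650 over all kept cells. Both thalamic markers, Slc17a6 and Tcf7l2, also exceeded every blank, with a summed level of 169 to 303 against 144 to 174 over all kept cells. Of the 4 markers of the oligodendrocyte lineage, 2 did, Pdgfra and Sox10, and all 4 summed to 73.2 to 133 against 134 to 142. The lower sum came from Pdgfra (32.2 ± 7.63 against 58.3 ± 5.45) and Cspg4 (17.5 ± 4.21 against 37.5 ± 3.84). Sox10 was at 35.8 ± 14.9 against 36.5 ± 4.53, and Enpp6 at 9.68 ± 1.55 against 7.03 ± 0.84. The gate therefore held cells in which genes of other regions and lineages were measurable, and position, which the gate did not use, was examined next.

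Cells on either side of the Cux2 threshold had similar levels, and both differed from the members with the most Cux2. The 6468 members with exactly 4 Cux2 counts held 91.9 ± 26.02 Gpc5 and 273 ± 87.9 Tcf7l2 counts per 10000. The 10779 cells with 3 Cux2 counts that met the other conditions held 73.6 ± 16.6 Gpc5 and 303 ± 88.2 Tcf7l2. The 16190 members with 8 or more Cux2 counts held 201 ± 33.5 Gpc5 and 30.3 ± 20.7 Tcf7l2. These values chose, or moved with, the rule and were not tested.

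The members lay close to the outer edge of the sections, above the layer 4 neurons. Layer 4 neurons were taken as cells with at least 4 Rorb and at least 2 Cux2 counts, 39777 cells in all. The median distance of the members from the edge was 260 ± 18.9 coordinate units (SD over 8 sections) and that of layer 4 neurons was 361 ± 33.8. The coordinate unit is not given in the sources used here. Across the 8 sections the members' median ran from 234 to 291, the layer 4 median from 295 to 403, and the median of all kept cells from 805 to 975. The members were nearer the edge in 8 of 8 sections, by 101 ± 25.2 units (exact two-sided sign-flip permutation test over 8 sections, p = 0.0078, the smallest it can give). The edge includes every outer surface of a section, not the pial surface over barrel cortex alone.

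**Figure D1:**
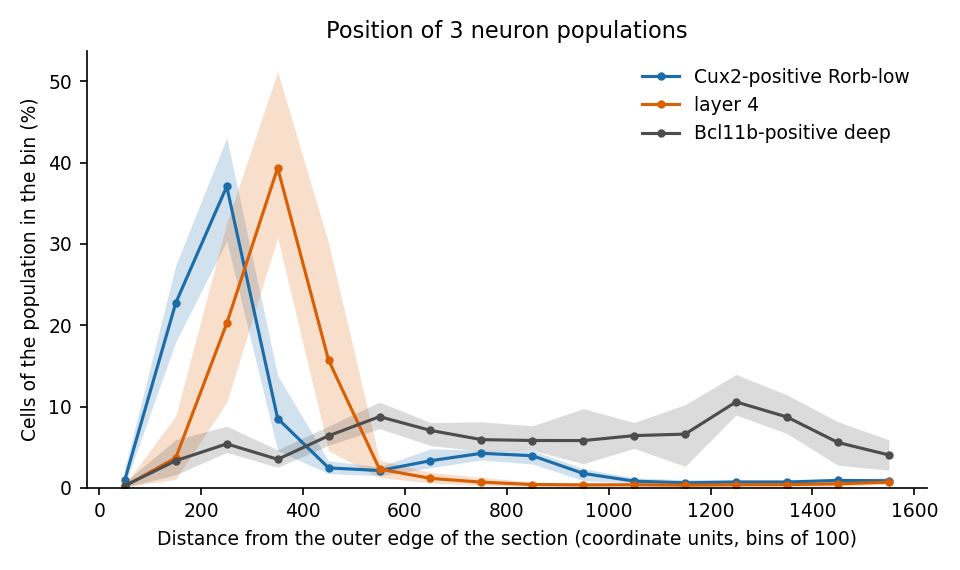
Percentage of each population (vertical axis) in bins of 100 coordinate units of distance from the outer edge of the section (horizontal axis). Lines are means over 4 coverslips and bands run from the lowest to the highest coverslip; the Cux2-positive Rorb-low neurons peak nearer the edge than the layer 4 neurons and show a second, lower peak between 600 and 1000 units.

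Members were more frequent around members than around layer 4 neurons. Of the 20 nearest kept cells of a member, 28.5% ± 3.28 were members (SD, 8 sections), against 4.30% ± 0.591 around layer 4 neurons and 4.10% of all kept cells. The difference of 24.2 percentage points was positive in 8 of 8 sections (exact sign-flip permutation test, p = 0.0078, Benjamini-Hochberg adjusted over 5 classes 0.0098). Layer 4 neurons made up 4.98% ± 1.36 of a member's neighbours and 48.2% ± 5.01 of a layer 4 neuron's neighbours, lower around members in 8 of 8 sections (adjusted exact p = 0.0098). Bcl11b-positive deep neurons were rare around both, at 1.03% ± 0.303 and 0.448% ± 0.165, and higher around members in 8 of 8 sections (adjusted exact p = 0.0098). Cells with at least 5 Slc1a3 counts were fewer around members, 8.54% ± 1.27 against 11.4% ± 1.58, again in 8 of 8 sections (adjusted exact p = 0.0098). Cells with at least 5 counts of Gad1 and Gad2 took 12.1% ± 2.28 and 11.8% ± 3.96 of the neighbours, higher around members in 5 of 8 sections, a difference that did not pass the same exact permutation test (p = 0.75). Members could not count in the Slc1a3 and Gad classes, because their gate excludes such cells. Layer 4 neurons could, because their gate sets no limit on these genes. The part of the gates in the Slc1a3 and Gad comparisons was not tested.

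**Figure D2:**
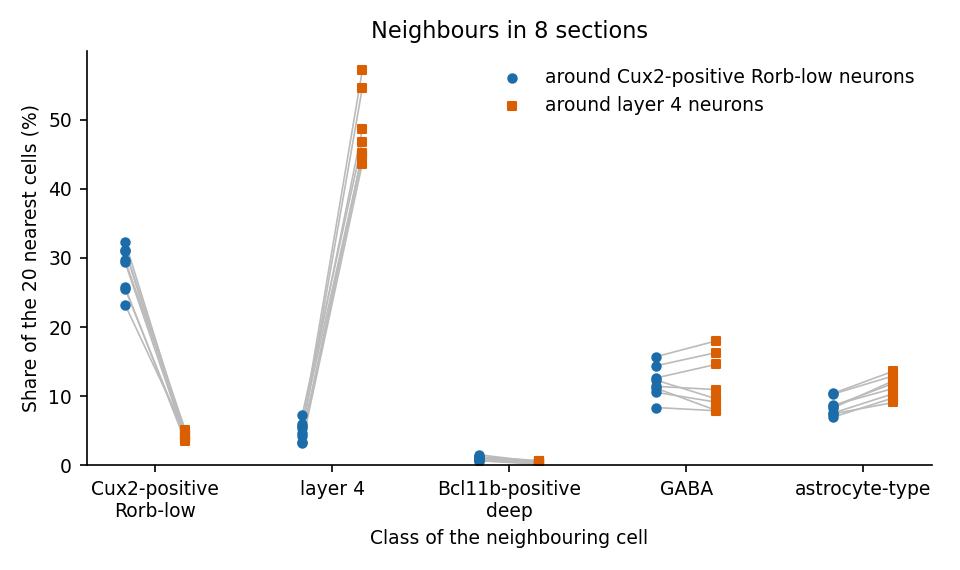
Share of the 20 nearest cells (vertical axis, percent) that belonged to each of 5 classes (horizontal axis), around Cux2-positive Rorb-low neurons (circles) and around layer 4 neurons (squares), with 1 pair of joined points per section and 8 sections. The members' own class fell from a mean of 28.5% around members to 4.30% around layer 4 neurons in every section, while the GABA shares crossed.

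The members fell into an outer shell, an inner band and cells in the core of the sections. The limits of these zones were set after the distances had been seen, so their values are a description with no test. The outer shell, less than 500 units from the edge, held 76.7%, 75.1%, 73.3% and 62.2% of the members on coverslips 1 to 4. The inner band, from 600 to 1000 units, held 12.4%, 13.2%, 13.2% and 14.4%. The core, from 1200 units on, held 8.26%, 8.16%, 9.95% and 18.8%. The inner share was nearly level over the coverslips, whereas coverslip 4 had the highest core share and the lowest outer share. Core members were also the deepest, with median counts of 377 to 509 per cell against 189 to 276 in the outer shell and 209 to 280 in the inner band. Cux2 was 116 ± 13.2 per 10000 in the core against 435 ± 30.8 in the outer shell and 499 ± 8.34 in the inner band. A fixed count threshold can be passed at a lower relative level in cells with more counts. The part of depth in the core members' Cux2 level was not tested. The outer shell was not particular to the members. It also held 85.0%, 84.9%, 77.2% and 69.6% of layer 4 neurons on coverslips 1 to 4. Of Bcl11b-positive deep neurons it held 17.7% to 19.9%. "Upper-layer" is therefore kept as the name of the gate only, and members are called by their zone below.

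Among the members Gpc5 was highest in the outer shell. In counts per 10000 gene counts it stood at 259, 229, 237 and 177 in the outer shell of coverslips 1 to 4, at 30.6, 40.4, 19.6 and 22.8 in the inner band, and at 68.2, 55.3, 45.9 and 43.6 in the core. Every outer value lay above every inner and core value, and the outer mean was 7.95 times the inner and 4.23 times the core mean. Gpc6, a second glypican, followed the same order at 131 ± 6.19 in the outer shell, 20.2 ± 4.06 in the inner band and 43.4 ± 3.69 in the core. Fzd3, a Frizzled receptor of axon guidance and planar polarity, stood at 170 ± 11.6, 78.5 ± 4.78 and 42.4 ± 2.08. Sdc1, a syndecan, stood at 72.6 ± 9.60, 35.8 ± 4.73 and 11.9 ± 3.29 in the same order. Gpc2 stood at 45.9 ± 10.7, 17.7 ± 4.39 and 12.8 ± 1.60. Sfrp1, a secreted Wnt antagonist, was 44.5 ± 8.38 in the outer shell and 18.4 ± 3.36 in the inner band, without overlap, but its core values overlapped the outer ones. Frzb was 24.0 ± 6.98, 15.6 ± 5.47 and 7.90 ± 1.87, and its outer and inner values overlapped. High Gpc5 was not particular to the members of the shell. On the normalised scale of the fits below, layer 4 neurons within 500 units held 270 ± 47.6 against 247 ± 43.3 in members. Fzd3 stood there at 146 ± 14.6 in layer 4 neurons against 186 ± 16.9, and Gpc6 at 58.7 ± 9.96 against 144 ± 10.7.

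Among the members Fosl2, a subunit of the AP-1 transcription factor, marked the inner band instead. It stood at 157, 133, 191 and 215 counts per 10000 in the inner band of coverslips 1 to 4, against 9.82 to 12.04 in the outer shell and 4.98 to 6.86 in the core. The inner mean was 15.9 times the outer mean. The most frequent blank averaged 12.2 per 10000 in the members, and outer and core Fosl2 lay at or below that level. The ratio therefore rests on the inner counts. Sfrp2, another secreted Wnt antagonist, was 75.9 ± 20.7 in the inner band, 12.6 ± 3.22 in the outer shell and 10.0 ± 2.66 in the core. Syt6, a synaptotagmin used as a deep-layer marker, stood at 26.5 ± 6.22 in the inner band and 4.00 ± 1.16 in the outer shell. Outer Sfrp2 and outer Syt6 were also near or below the level of the most frequent blank. The Wnt ligand gene Wnt7b, at 76.5 ± 11.6 in the inner band, was 1.99 times its outer mean. Ctnnb1, which encodes beta-catenin, was 1.93 times its outer mean there, at 332 ± 16.9. Bcl11b-positive deep neurons at that depth held Fosl2 and Wnt7b too. At 700 to 800 units Fosl2 stood at 62.2, 139, 86.1 and 153 in deep neurons of coverslips 1 to 4. Members in the same bin stood at 137, 121, 199 and 193. Wnt7b stood there at 104, 89.3, 125 and 129 in deep neurons against 106, 62.7, 92.1 and 92.2 in members. Of the 140 genes, 27 lay higher and 24 lower in the inner band than in the outer shell with no overlap between the 4 coverslips' values (36.4% in all).

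Tcf7l2, a transcription factor of Wnt signalling that is high in thalamic neurons and in maturing oligodendrocytes, differed most between the core and the outer shell. It stood at 367, 539, 565 and 665 counts per 10000 in the core of coverslips 1 to 4, and at 4.60 to 15.0 in the outer shell, where it was close to the most frequent blank. Sox2 was 185 ± 10.2 in the core against 21.4 ± 4.49, and Lef1, another Wnt-responsive factor, 65.6 ± 11.4 against 9.49 ± 1.19. Slc17a6, the vesicular glutamate transporter of thalamic and developing cortical neurons, was 152 ± 25.04 against 85.4 ± 9.18. Sox10, a factor of the oligodendrocyte lineage, was 68.2 ± 15.7 in the core and 59.8 ± 29.2 in the inner band against 14.1 ± 3.13 in the outer shell. Between core and outer shell 31 genes lay higher and 48 lower without overlap (56.4% of 140).

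**Figure D3:**
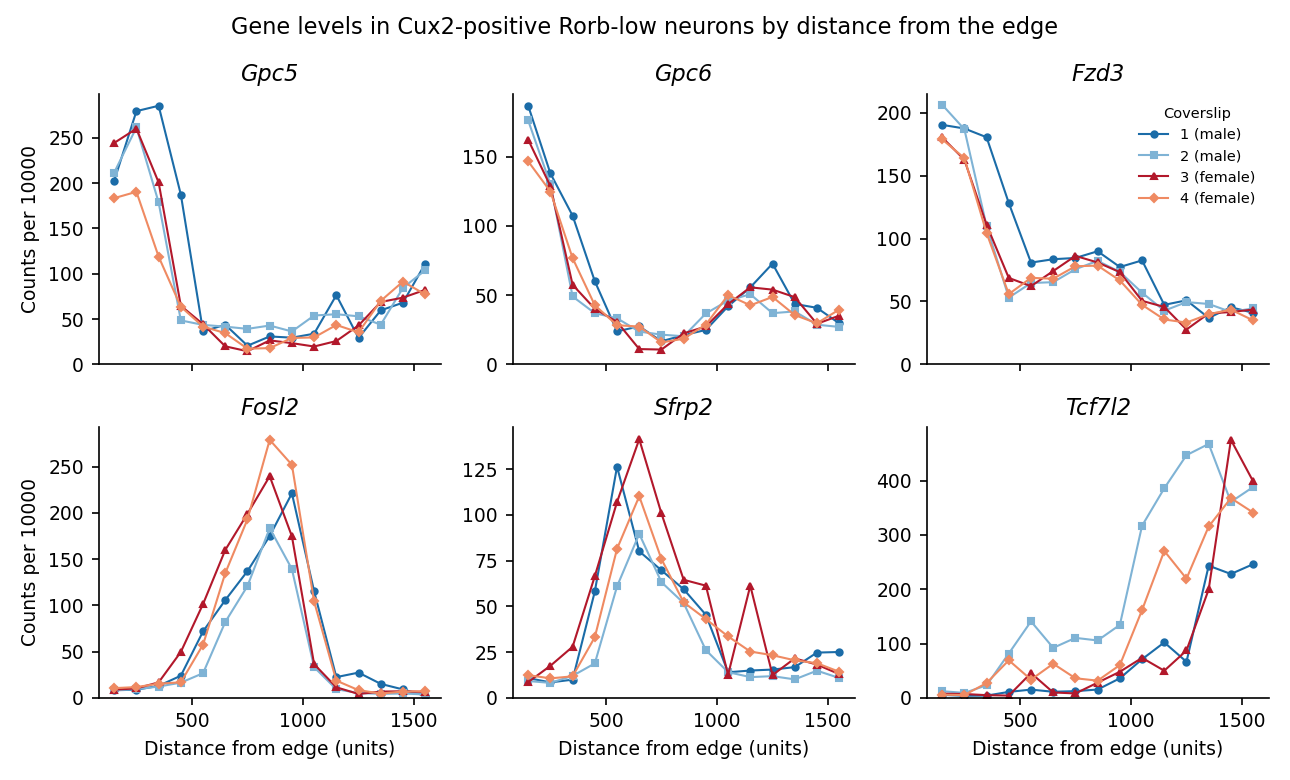
Counts per 10000 gene counts (vertical axes) of 6 genes in Cux2-positive Rorb-low neurons, in bins of 100 coordinate units of distance from the section's outer edge (horizontal axes), with 1 line per coverslip. Gpc6 and Fzd3 are highest in the first bin drawn, from 100 to 200 units, and Gpc5 peaks between 200 and 400 units. Fosl2 and Sfrp2 peak between 500 and 1000 units on all 4 coverslips, and Tcf7l2 is highest beyond 1000 units.

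The members were compared with layer 4 neurons over the 134 genes that no gate used. Counts were summed per coverslip and population and tested with edgeR's quasi-likelihood test, with the coverslip as a block. A gene was called at a Benjamini-Hochberg adjusted p below 0.05 if it also exceeded all 40 blanks on every coverslip in the higher population. Levels in these comparisons are TMM-normalised counts per 10000 counts of the tested genes. By this rule 43 genes were called (32.1%), 25 higher (18.7%) and 18 lower (13.4%) in the members, and 28 of the 134 genes did not overlap between the populations (20.9%). A smaller number, 10 (7.46%), passed a test against a 1.5-fold difference. Scaled to summed cell volume instead of counts, 7 genes were higher and 43 lower, and the median log2 difference of all genes moved from 0.02 to -0.23; directions below are relative to the other genes on the panel.

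Glypicans and syndecans were found on both sides of the contrast with layer 4. Of the 10 heparan sulfate proteoglycan genes, 6 were higher (Gpc1, Gpc2, Gpc6, Sdc1, Sdc2 and Sdc3), 1 was lower (Gpc5) and 3 were not called. That is 60% higher and 10% lower, against 18.7% and 13.4% over all genes tested. Their median log2 difference was 0.15 against 0.02 over all genes tested. Scaled to cell volume, Gpc1 and Sdc3 turned negative. Gpc6 stood at 116, 99.7, 102 and 94.2 in the members of coverslips 1 to 4 and at 44.7, 53.8, 64.2 and 60.5 in layer 4 neurons. All member values lay above all layer 4 values, a log2 difference of 0.89 ± 0.12 (SE; adjusted p = 0.0018). Gpc2 stood at 34.4, 28.1, 45.5 and 38.9 against 18.8, 16.3, 24.9 and 22.95, also without overlap (log2 0.82 ± 0.05, adjusted p = 4.5e-05). Sdc1 and Sdc2 were higher by 0.42 ± 0.05 and 0.37 ± 0.05 on the log2 scale, the first with overlapping coverslips and the second without. Gpc5, although a marker of the population, was lower than in layer 4. It stood at 210, 177, 174 and 124 in the members against 245, 215, 195 and 148, lower on each of the 4 coverslips but with overlapping ranges (log2 -0.23 ± 0.03, adjusted p = 0.0014). This call depended on the Cux2 threshold: with members of at least 6 Cux2 counts the difference was 0.02 ± 0.02 (edgeR adjusted p = 0.48).

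Among the secreted Wnt antagonists, Sfrp1 was the only one of 7 called (14.3% higher, against 18.7% over all genes tested). Sfrp1 stood at 35.8, 36.2, 44.3 and 38.1 in the members and at 18.4, 18.9, 18.1 and 17.6 in layer 4 neurons, without overlap (log2 1.08 ± 0.07, adjusted p = 9.0e-05). Frzb was 20.8 ± 6.47 against 17.5 ± 2.64 and was not called (log2 0.22 ± 0.10, adjusted p = 0.12). Of 19 genes of Wnt ligands and their secretion, Wnt4 was higher (log2 0.36 ± 0.07) and Wnt9a lower (-0.73 ± 0.06), with a median near 0 over the list. The called share was 5.26% in each direction, against 18.7% higher and 13.4% lower over all genes tested. Of 31 receptor and pathway genes, 6 were higher (Fzd3, Ryk, Dvl1, Dvl2, Ctnnb1 and Btrc) and 6 lower (Fzd10, Reck, Adgra2, Daam2, Lef1 and Lrp5), with a median of 0.04. That is 19.4% in each direction, against 18.7% higher and 13.4% lower over all genes tested. Scaled to cell volume, Dvl1, Dvl2, Ctnnb1 and Btrc turned negative. Fzd3 was higher by 0.25 ± 0.04 and the receptor kinase-like gene Ryk by 0.27 ± 0.04. Reck and Adgra2, which encode surface partners that act together in the response to Wnt7 ligands, were lower, at -0.64 ± 0.05 and -0.33 ± 0.09 on the log2 scale. Reck, Adgra2, Wnt9a, Fzd10, Daam2 and Lrp5 all lay below the highest blank in the members on at least 1 coverslip, so their differences rest on the layer 4 counts. Of the imprinted genes, Meg3 was higher by 0.12 ± 0.03, a value that turned negative when scaled to cell volume, and Peg3 was not called.

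Some of these differences moved with the gates and the zones. The layer 4 gate sets no limit on Slc1a3, Gad1, Gad2 or Bcl11b, and the summed astrocyte markers were 203 to 329 counts per 10000 there against 105 to 169 in the members. The astrocyte genes Aqp4, Aldh1l1, Apoe, Aldoc and Glul were the most reduced of the genes called. Aqp4 differed by -1.28 ± 0.07, Aldh1l1 by -1.09 ± 0.05, Aldoc by -0.96 ± 0.04 and Glul by -0.90 ± 0.05 on the log2 scale, and Apoe stood at 88.8 ± 25.7 against 177 ± 48.5. Both populations also held Tcf7l2, at 122.8 ± 61.1 raw counts per 10000 gene counts in the members and 161 ± 40.4 in layer 4 neurons. With the members' exclusions applied to layer 4 neurons too, which left 26629 of them, Aqp4 was lower by -0.16 ± 0.05, and Apoe, at 0.15 ± 0.09, did not pass the test (edgeR adjusted p = 0.20). Sox10 and Fosl2 were among the most raised beside Sfrp1, at 1.30 ± 0.13 and 1.07 ± 0.07. With matched exclusions and only cells within 500 units of the edge, Sox10 differed by 0.47 and Fosl2 by -0.35, and neither was called because neither exceeded every blank on every coverslip. Of the 43 genes called with the gates as given, 11 changed sign in at least 1 of the 3 other settings (matched exclusions, the outer 500 units, or both). With matched exclusions Gpc1 (-0.06), Dvl1 (-0.04) and Ep300, a histone acetyltransferase gene (-0.01), turned to values that were not called. Sox2 was lower with the gates as given, at -0.24, and was called higher in the matched outer cells, at 0.31 ± 0.06. Ep300 and Sox2 were picked for mention after their values had been seen. Over all 4 settings (gates as given or matched, all cells or the outer 500 units), 18 genes kept their call and direction and the other 25 did not. The 10 higher ones included Sfrp1, Gpc6, Gpc2, Sdc1, Sdc2, Sdc3, Wnt4, Ctnnb1 and Btrc. The 8 lower ones were Gpc5, Wnt9a, Reck, Adgra2, Tcf4, Glul, Aldoc and Aqp4. In the matched outer cells the difference of Gpc6 was larger, at 1.22 ± 0.09, as were those of Wnt9a, at -1.36 ± 0.09, Reck, at -1.05 ± 0.06, and Gpc5, at -0.42 ± 0.05.

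**Figure D4:**
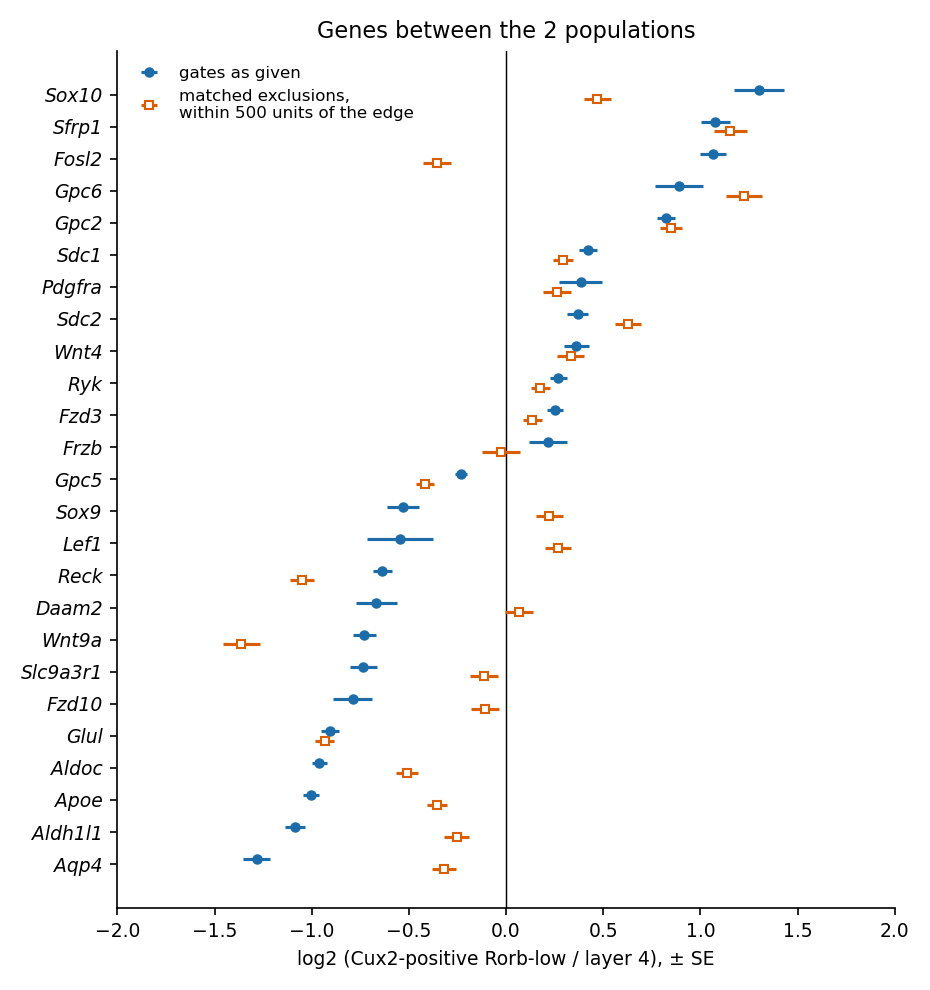
log2 difference between Cux2-positive Rorb-low and layer 4 neurons (horizontal axis, ± SE, 4 coverslips) for the most raised and most reduced genes called, with Gpc5 and Frzb. Filled circles use the gates as given and open squares use matched exclusions within 500 units of the edge; Sfrp1, Gpc6 and Gpc2 stay raised, Aqp4, Aldh1l1 and Apoe move towards 0, and Fosl2, Sox9, Lef1, Daam2 and Frzb change sign.

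Bcl11b-positive deep neurons, 32353 cells with at least 5 Bcl11b counts, at most 1 each of Cux2 and Rorb and the same exclusions, were the second comparison. By the same rule 46 of 134 genes were called (34.3%), 18 higher (13.4%) and 28 lower (20.9%) in the members, and 16 (11.9%) passed the 1.5-fold test. The populations did not overlap for 48 genes (35.8%). Scaled to library totals the split was 24 higher and 19 lower. Here Gpc5 separated the populations: it stood at 198, 174, 166 and 112 in the members against 64.9, 72.1, 85.0 and 66.6 in deep neurons, without overlap (log2 1.15 ± 0.14, edgeR adjusted p = 8.3e-04). Gpc6 (1.14 ± 0.09), Sdc1 (1.01 ± 0.12) and Gpc2 (0.56 ± 0.10) were higher too, and Gpc1, Gpc4 and Sdc2 lower. The 10 proteoglycan genes had a median of 0.47 against -0.02 over all genes. Of them 40% were higher and 30% lower, against 13.4% and 20.9% over all genes tested. Sfrp1 stood at 36.5 ± 3.90 against 11.6 ± 0.55, a log2 difference of 1.65 ± 0.07, and did not exceed every blank on each coverslip in deep neurons. Frzb was higher by 0.73 ± 0.08 (edgeR adjusted p = 5.5e-04) but did not exceed every blank on every coverslip, so it was not called. Slc17a6 was higher by 1.32 ± 0.07 and Fzd3 by 0.61 ± 0.06.

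Lower in the members than in deep neurons were Syt6 (log2 -3.04 ± 0.16), Sh3rf1, a scaffold protein gene (-1.64 ± 0.07), Prkce, a protein kinase C gene (-1.26 ± 0.06), and the receptor genes Fzd7 (-1.28 ± 0.14) and Fzd1 (-0.77 ± 0.12). Prkce stood at 116, 127, 117 and 115 against 301, 301, 251 and 286, without overlap. Of the 19 ligand and secretion genes, Wnt7b (-0.84 ± 0.12) and Porcn, the acyltransferase that Wnt ligands need for release (-0.50 ± 0.07), were lower and none was higher. The lower share was 10.5%, against 20.9% over all genes tested. Of the 31 receptor and pathway genes 5 were higher and 5 lower (16.1% each, against 13.4% and 20.9% over all genes tested), with a median of -0.01. Syt6, Fzd7 and Fzd1 lay below the highest blank in the members, and Tcf7l2 and Sox10 in deep neurons, on at least 1 coverslip. Tcf7l2 was the most raised gene, at 122.9 ± 59.9 against 7.94 ± 1.99 (log2 3.87 ± 0.30), and Sox10 (1.82 ± 0.19) and Sox2 (1.44 ± 0.22) were higher too. With the members limited to the outer 500 units, Tcf7l2 was at 0.13 ± 0.36 (adjusted p = 0.76) and Sox2 at 0.06 ± 0.10 (adjusted p = 0.58), while Gpc5 was higher by 1.69 ± 0.13, Gpc6 by 1.64 ± 0.11 and Sdc1 by 1.48 ± 0.10. Frzb was called there, at 1.08 ± 0.10, and Fosl2 was lower, at -2.10 ± 0.11, against -0.58 ± 0.08 with all members.

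Members among their own kind differed from scattered ones. Embedded members, with at least 5 members among their 20 nearest cells, numbered 18717. Scattered members, with at most 1, numbered 7385. Between 91.2% and 95.9% of embedded members lay in the outer 500 units, against 26.6% to 34.8% of scattered ones, and scattered members had the higher median counts (243 to 326 against 188 to 281). Embedded members held more of the gate gene Cux2, at 9.48 to 13.9 counts per cell against 6.76 to 8.02. Of 134 genes 50 were called (37.3%), 31 higher (23.1%) and 19 lower (14.2%) in embedded members, and 22 (16.4%) passed the 1.5-fold test. For 66 genes (49.3%) the 2 kinds of members did not overlap. Scaled to cell volume the split was 23 higher and 25 lower. In this fit the spread was shared over all genes in full, so its p-values carry no spread of single genes; coverslip values are therefore given.

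Gpc5 was the most raised of the genes called, at 273, 228, 251 and 229 in embedded members against 66.5, 59.9, 58.7 and 48.4 in scattered ones, a log2 difference of 2.08 ± 0.16. Sdc1 stood at 93.6, 68.1, 73.9 and 88.5 against 25.1, 20.5, 25.2 and 21.1 (1.81 ± 0.15). Fzd3 and Gpc6 were higher by 1.56 ± 0.16 each, Gpc2 by 1.37 ± 0.15, Ryk by 1.07 ± 0.15 and Apc2, a homologue of the beta-catenin regulator Apc, by 0.89 ± 0.15. Frzb stood at 36.5, 21.1, 22.5 and 24.1 against 11.5, 10.1, 13.9 and 8.15, without overlap (1.25 ± 0.14). Of the 10 proteoglycan genes 5 were higher and Sdc2 lower, with a median of 0.19 against -0.12 over all genes. That is 50% and 10%, against 23.1% and 14.2% over all genes tested. Of the 31 receptor and pathway genes 9 were higher and 3 lower (Tcf7l2, Lef1 and Ctnnb1), which is 29% and 9.68% against 23.1% and 14.2% over all genes tested. Among the lower genes Tcf7l2 stood at 5.50, 10.6, 13.7 and 43.7 against 183, 310, 312 and 366, and Sox10 (-3.20 ± 0.16) and Sox2 (-2.25 ± 0.16) were lower too. The oligodendrocyte precursor genes Cspg4 and Pdgfra were lower, at -1.97 ± 0.14 and -1.96 ± 0.15.

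The same contrast within the outer 500 units, chosen after the zones had been seen, removed the core cells from both sides. It left 17555 embedded and 2249 scattered members and called 49 genes, 41 of them among the 50 above. The embedded members still held more Cux2, at 9.38 to 13.7 counts per cell against 6.44 to 7.81. They also lay nearer the edge, at a median of 202 to 236 units against 277 to 320. The part of Cux2 level and depth in the differences was not tested. Gpc5 was higher by 1.46 ± 0.08 (edgeR adjusted p = 2.3e-05), Sdc1 by 1.46 ± 0.12, Gpc6 by 1.36 ± 0.08, Fzd3 by 1.17 ± 0.09, Frzb by 0.95 ± 0.18 (edgeR adjusted p = 0.0027) and Ryk by 0.83 ± 0.08. Sox10 (-2.17 ± 0.24), Cspg4 (-1.71 ± 0.10) and Pdgfra (-1.55 ± 0.14) were still lower. Lef1 no longer passed the test (-0.29 ± 0.11, edgeR adjusted p = 0.054), and Tcf7l2, at -1.85 ± 0.54, no longer exceeded every blank.

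**Figure D5:**
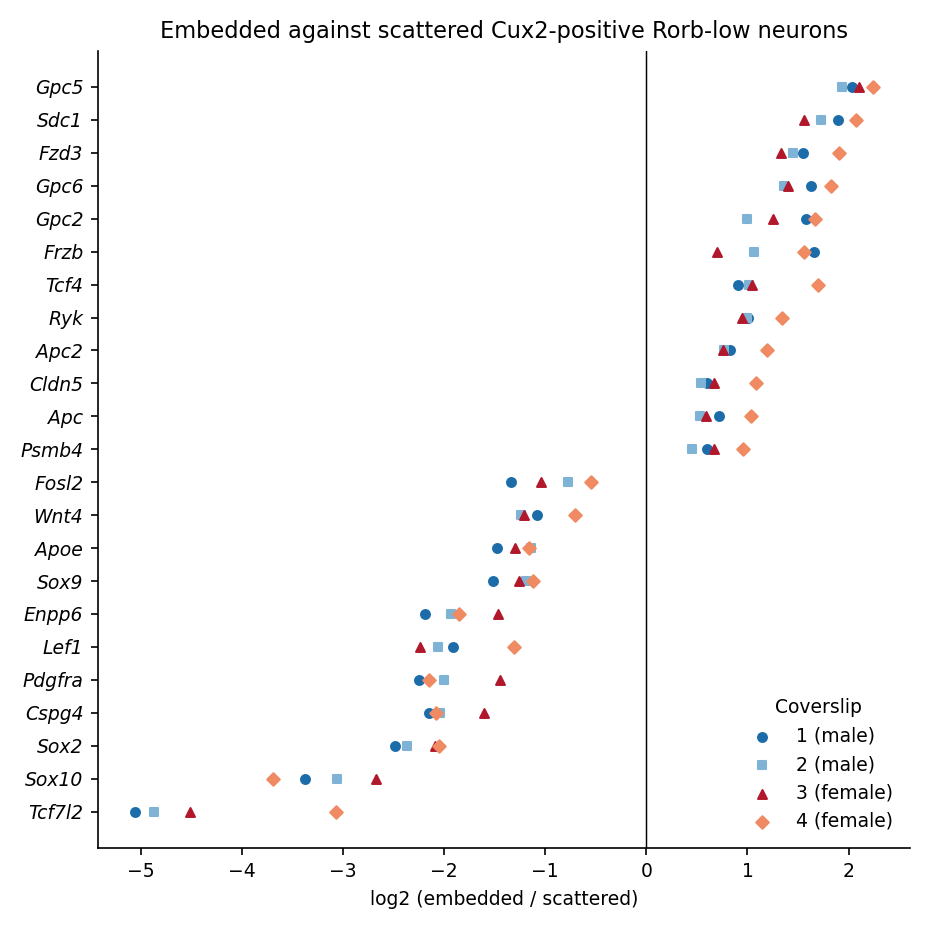
log2 difference between embedded and scattered Cux2-positive Rorb-low neurons (horizontal axis) for the most raised and most reduced genes called, with 1 point per coverslip. All 4 points of each gene lie on the same side of 0, and Gpc5, Sdc1 and Fzd3 lead the raised genes while Tcf7l2 and Sox10 lead the reduced ones.

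Embedded members were then divided at the median distance from the edge of their own section, to compare the 9360 members nearer the edge with the 9357 farther from it. By the same rule 23 of 134 genes were called (17.2%), 16 higher (11.9%) and 7 lower (5.22%) near the edge, and Fosl2 alone (0.746%) passed the 1.5-fold test. The values did not overlap for 13 genes (9.7%). The count fell to 13 called genes without male replicate 2 (coverslip 2) and to 14 without female replicate 1 (coverslip 3). Scaled to cell volume the split was 5 higher and 18 lower, with a median log2 difference of -0.11 over all genes. Fosl2 stood at 8.08, 7.80, 8.33 and 10.3 near the edge, not above every blank on each coverslip, against 26.8, 31.3, 35.5 and 40.1 farther from it (log2 -1.95 ± 0.08, edgeR adjusted p = 4.9e-06). Within the outer 500 units alone it differed by -0.36 ± 0.08 and was not called. Sfrp2 behaved likewise, at -1.02 ± 0.18 and, within 500 units, -0.25 ± 0.20 (edgeR adjusted p = 0.44).

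Other differences by depth were called within the outer 500 units as well. Gpc6 stood at 190, 176, 180 and 165 near the edge against 140, 107, 116 and 127, without overlap (log2 0.54 ± 0.06, edgeR adjusted p = 0.0010), and was higher by 0.33 ± 0.06 within 500 units. Gpc2 was higher by 0.42 ± 0.06, and by 0.25 ± 0.05 within 500 units. The imprinted gene Peg3 stood at 145, 138, 138 and 171 against 191, 215, 198 and 238 (-0.51 ± 0.05), and at -0.46 ± 0.04 within 500 units. Cx3cl1, the gene deleted in the knockout sections, was lower near the edge on each of the 4 coverslips, with overlapping ranges (-0.58 ± 0.05, edgeR adjusted p = 4.2e-04), and at -0.59 ± 0.04 within 500 units. Slc17a6 was lower, at -0.40 ± 0.04, and by -0.30 ± 0.04 within 500 units. Gpc5 did not pass the test in the whole embedded set (-0.08 ± 0.08, edgeR adjusted p = 0.50), but within 500 units it was lower near the edge (-0.30 ± 0.05, edgeR adjusted p = 0.0027), as was Frzb (-0.59 ± 0.17, edgeR adjusted p = 0.040). Cldn5, a gene of vessel walls, and Gfap, a gene of astrocytes and the glial limiting surface, were higher near the edge by 0.68 ± 0.12 and 0.57 ± 0.10; the part of neighbouring cells' transcripts in these differences was not tested.

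Female and male coverslips did not yield a called gene in the members (0 of 134, 0%, by edgeR; 13 at an unadjusted p below 0.05, and 1 by DESeq2). The 2 female and 2 male values did not overlap for 59 of 134 genes (44%). With 2 values in each group many genes separate by chance alone, and genes of the same coverslips are not independent. This share therefore does not measure a sex difference. Gsk3b, which encodes a beta-catenin kinase and was picked for mention after its values had been seen, stood at 138 ± 2.52 in females against 214 ± 37.98 in males and was not called. Leaving out female replicate 1, which leaves coverslip 4 as the only female sample, gave 9 called genes. Each coverslip holds 1 sex, so sex and coverslip cannot be told apart beyond this 2 against 2 design.

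Cx3cl1 in the members differed between the sections of a coverslip far more than between populations. In counts per 10000 gene counts it stood at 5.53 and 231 in the first and second section of coverslip 1, at 6.66 and 173 on coverslip 2, at 7.38 and 203 on coverslip 3 and at 7.31 and 166 on coverslip 4. Kept cells outside the population stood at 5.22 and 276, 6.51 and 204, 6.09 and 237, and 6.80 and 203 in the same order. Sections were numbered by position, and no genotype was read from these levels. In the second sections layer 4 neurons held 243, 179, 205 and 165, close to the members, and deep neurons 405, 309.7, 341 and 303.6, above them on 4 of 4 coverslips. In the first sections the members held 5.53 to 7.38, layer 4 neurons 5.01 to 7.73 and deep neurons 5.17 to 7.92. With the 8 sections as samples the members differed from layer 4 neurons by -0.06 ± 0.04 (edgeR adjusted p = 0.17) and from deep neurons by -0.50 ± 0.14 (edgeR adjusted p = 0.010), the latter not called because it did not exceed every blank in every section. Both estimates average first sections of low Cx3cl1 with second sections of high Cx3cl1, so they describe neither kind of section. Sums per coverslip gave -0.17 ± 0.12 (edgeR adjusted p = 0.32) and -0.91 ± 0.09 (edgeR adjusted p = 4.4e-04), but they pool sections that the populations fill unequally: on coverslip 2 the members were above layer 4 neurons in the sum (99.9 against 77.8) and below them in both sections. Without coverslip 2 (male replicate 2) the summed difference from layer 4 neurons was -0.33 ± 0.05 (edgeR adjusted p = 0.0038).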

How the data were processed

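The authors deposited whole-number counts of transcripts in each segmented cell, with 140 gene columns and 40 blank columns, per the file headers. Cell centres and volumes, deposited beside them, are other measures whose unit is not given. Decoding and segmentation software is not given in the sources used here. Members and gene lists were chosen with earlier results of these data known. Squares of side 100 holding at least 4 cells were joined, and the 2 largest pieces of a coverslip were its sections. Sums per coverslip (4 samples) were tested with edgeR 4.0.16 (R 4.3.3) and TMM factors, without the gate genes. In self-tests on simulated data 29 or 30 of 30 changed genes were recovered among 134 in each comparison, with 1 to 3 false calls. The simulation gave all genes the same spread and, between the sexes, no coverslip effect. It therefore checks that the code runs as intended and does not measure power in these data. Named genes were the markers, the gate genes, up to 12 called genes in each direction with 1 sign on all 4 coverslips, called members of the lists, and Cx3cl1; any other is marked, and 1 gene is not reported here. No label says which coverslips share litters or runs, so p-values measure the spread between these 4 coverslips or 8 sections. DESeq2 1.42.0, other gates, scalings and positions were alternatives.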

Additional observations from a re-analysis of the deposited data

Results flagged for a closer look

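Values of 111 groups (4 coverslips or 8 sections) were searched for a sample standing far from the others, and 7 were found; chance alone marks about 1 in 20 such groups. Coverslip 4 had 18.8% of the members in the core, apart from the other 3 coverslips. Coverslip 4 also stood apart in the log2 difference from layer 4 neurons of Aqp4 (-1.52), in the differences from deep neurons of Fzd3 (0.44) and Sox10 (2.53), and in the embedded against scattered differences of Apc2 (1.19) and Ryk (1.34). On coverslip 3 the near-edge against far-edge difference of Slc17a6 (-0.28) stood apart. The 6 log2 differences had the same direction on all 4 coverslips.

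The population differences were also compared between the sexes, in 536 gene tests with edgeR over 4 comparisons, and 2 passed. Meg3 was higher than in layer 4 neurons by 0.06 on female and 0.19 on male coverslips, a difference of -0.13 (edgeR adjusted p = 0.0056). Tcf7l2 was lower in embedded than in scattered members by -3.79 on female and -4.96 on male coverslips, a difference of 1.18 (edgeR adjusted p = 0.019). Coverslip 4, which is female, also had the highest core share; its part in these differences was not tested.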

How the results depend on the processing

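Over the counts of called genes, the shares, the neighbours and the edge distance, 131 alternative values stayed on their side, and the rest follow. The test against a 1.5-fold difference left 10 of 43 genes against layer 4, 16 of 46 against deep neurons, 22 of 50 between embedded and scattered members and 1 of 23 between near-edge and far-edge members. Leaving out 1 coverslip gave 13 to 19 genes in that last comparison, 0 to 9 between the sexes, 35 to 42 against layer 4, 35 to 47 against deep neurons and 42 to 56 for embedded members. Between the sexes 1 gene was called with the volume offset, 1 with DESeq2 and 1 at a Cux2 minimum of 6. Library totals turned the deep-neuron split to 24 higher and 19 lower. The share of kept cells was 5.47% at a Cux2 minimum of 3, 2.76% at a minimum of 6, 2.77% with Rorb at 0 and 2.94% within 500 units of the edge. Without male replicate 1 the GABA neighbour difference reversed to -0.63 points; leaving out 1 coverslip gave -0.63 to 1.05. With Cux2 at 3 the members were nearer the edge in 7 of 8 sections (exact permutation p = 0.016). Between the sexes no paired analysis was possible because their replicate numbers only name coverslips; all comparisons between populations were paired by coverslip or section.

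Among the genes named in each comparison these log2 values reversed. Against layer 4 they were, with matched exclusions Apoe 0.15, Slc9a3r1 0.13, Daam2 0.26, Sox9 0.64, Gpc1 -0.063, Dvl1 -0.036 and Frzb -0.033; with matched exclusions within 500 units Fosl2 -0.35, Daam2 0.067, Lef1 0.27, Sox9 0.22, Dvl1 -0.0073 and Frzb -0.025; within 500 units Fosl2 -0.45, Pdgfra -0.23 and Lef1 0.076; at a Cux2 minimum of 6 Pdgfra -0.40 and Gpc5 0.015; with the volume offset Frzb -0.036, Gpc1 -0.15, Dvl1 -0.15, Meg3 -0.13, Dvl2 -0.051, Sdc3 -0.047, Ctnnb1 -0.029 and Btrc -0.021. Against deep neurons Lef1 (-0.10) and Gpc1 (0.012) reversed with members within 500 units. Between embedded and scattered members Cx3cl1, near 0 and not called, became 0.067 with library totals and with DESeq2, 0.15 with sections as samples, 0.13 with 100 to 400 counts per cell, and ran from -0.18 to 0.21 when 1 coverslip was left out; it was -0.56 within 500 units. In the same contrast Meg3 became 0.073 with 100 to 400 counts per cell. The cause of these changes was not tested. Wherever cells within 500 units, or 100 to 400 counts in the embedded contrast, were used, the setting was chosen after seeing the data. In the members 55 of 134 genes exceeded every blank on every coverslip, and the part of depth in this number was not tested.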
